A study of Mus musculus with 9 samples.

Results

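The mitochondrial ribosomal protein genes are the nuclear genes that encode the protein part of the ribosome inside mitochondria. They were taken as every protein-coding gene of the RNA-seq table whose symbol starts with Mrpl or Mrps followed by a digit. This gave 78 of 19769 genes, 49 named for the large subunit (Mrpl) and 29 named for the small subunit (Mrps). Their mRNA was compared between low-MYC and high-MYC MEFs, which are primary mouse embryonic fibroblasts homozygous for a Myc-Egfp fusion at the endogenous Myc locus. The proteasome inhibitor MG-132 (20 µM) had been given to the cells of both groups over 6 h to raise the MYC-GFP signal before they were sorted for low or high GFP, and the sorted cells were kept in culture overnight. Each group has 2 libraries, which are technical replicates, so every p-value below measures only the spread between these libraries and not the spread between cultures or embryos. The MEFs came from mid-gestation embryos. The series also holds FUBP1 ChIP-seq peaks and a read table of TACh-seq, an assay of nuclease-accessible chromatin, which were used at the genes' own positions. The ChIP-seq is of MEFs at steady state, and the TACh-seq samples are WT MEFs and KOKD MEFs, in which Fubp1 was knocked out and Fubp2 knocked down with siRNA.

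Mitochondria keep a small genome of their own, and a dedicated ribosome translates the few mRNAs it encodes, all of them for subunits of the respiratory chain and the ATP synthase. The RNA of this ribosome is made inside the organelle, whereas its proteins are encoded in the nucleus, made in the cytosol and imported. The large subunit forms peptide bonds, and the small subunit binds the mRNA and reads its codons. Many of the proteins have counterparts in bacterial ribosomes, and others, acquired later, are found only in mitochondria. The names do not always match the place in the structure. Mrps18a and Mrps30 sit in the large subunit, and Mrps36 is now known as a component of the alpha-ketoglutarate dehydrogenase complex. MYC is a transcription factor with a long-known part in ribosome and mitochondrial biogenesis.

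Values are normalized FPK, fragments per kilobase divided by a score of ERCC spike-in RNA that had been added per cell, so that they follow mRNA per cell and not the share of a library. Over all genes the sum was 46321 and 48291 normalized FPK in low-MYC and 102853 and 109090 in high-MYC libraries, while the depth, estimated from the step size of low values, was 87683487 to 96332024 reads. Myc itself was at 9.81 and 9.86 normalized FPK in low-MYC and at 20.3 and 20.5 in high-MYC libraries. Its ratio of group means, high-MYC over low-MYC, was 2.07, and the median of this ratio over all tested genes was 2.26. A list of 12 fibroblast markers summed to 338 and 343 normalized FPK in low-MYC and to 810 and 827 in high-MYC libraries. A list of 15 macrophage markers summed to 0.948 and 1.30 in low-MYC and to 29.5 and 30.9 in high-MYC libraries, with C1qa, Adgre1 and Tyrobp at 0 in low-MYC replicate 1. These markers therefore moved with the groups in every comparison below, and their part in the results was not tested. In such bulk libraries a different mixture of cells and a different amount of RNA per cell cannot be told apart.

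All 78 genes were higher in both high-MYC libraries than in both low-MYC libraries, in a table in which 99.0% of the tested genes were. Summed over the genes of the large subunit, the deposited level was 120 and 124 normalized FPK in low-MYC cells and 266 and 273 in high-MYC cells. The small-subunit genes summed to 42.9 and 44.1 in low-MYC cells and to 93.8 and 99.4 in high-MYC cells. In both sums the high-MYC libraries lay above the low-MYC libraries by much more than replicates differed. The ratio of group means ran from 1.89 in Mrps22 to 2.59 in Mrps6, with a median of 2.18 over the large subunit and 2.23 over the small subunit. The median ratio of all tested genes was 2.26. In limma on log2(normalized FPK + 0.1), with Benjamini-Hochberg adjustment over 11870 genes, 77 of the 78 could be tested, and all 77 rose at an adjusted p under 0.01. Of all tested genes 97.1% rose in the same fit, so this count sets the members no further apart than the table as a whole. The least certain was Mrpl23, with an adjusted p of 0.00598, and the next was Mrpl1, with 0.000223. At a fold of at least 2 the count was 54 of 77 (37 of 49 large-subunit and 17 of 28 small-subunit genes), against 55.1% of all tested genes. On this scale the median change was 1.07 log2 units in the large subunit and 1.06 in the small subunit. The smallest fitted changes were 0.61 in Mrpl1, 0.65 in Mrpl48 and 0.74 in Mrpl23 of the large subunit, and 0.76 in Mrps9, 0.77 in Mrps27 and 0.82 in Mrps35 of the small subunit. The biggest were 1.26 in Mrpl17 and Mrpl36 and 1.24 in Mrpl10, and 1.22 in Mrps12 and Mrps23 and 1.20 in Mrps26. The pseudocount lowers the fitted fold of low values, and Mrpl1, Mrpl48, Mrps27 and Mrps35 are among the lowest as deposited, so ratios of means, which carry no pseudocount, are given as well. With a pseudocount of 1 the 2-fold count was 12 of 77, against 12.2% of all tested genes, and with 0.01 it was 69, against 84.9%.

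The length by which the deposited values were divided sets the order of the genes, and it has to be read first. For genes with few reads, value times gene span fell on whole multiples of a single step in each library (72.7% to 74.1% of the values within 0.05 reads, against 22.2% to 23.0% with exon length). The span includes introns, so a compact gene appears high and a gene with long introns appears low. Over the 78 genes the Pearson correlation between log deposited level and log span was -0.89. After the values were multiplied by the span and divided by the summed exon length of the gene it was -0.20. Between the log exon-scale level and log exon length, however, it was -0.78. The order on the exon scale thus still follows the length used as divisor, and is not a length-free order of mRNA level. These are descriptions over genes that share the same 4 libraries, and carry no p-value. Levels are given below on the exon scale, as normalized fragments per kilobase of exon, unless the deposited scale is named. A change between groups within a gene is the same on both scales, apart from the pseudocount and the filter on low values.

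On the deposited scale the 5 highest genes were all of the large subunit and had short spans. Mrpl53, a mitochondria-specific protein, spans 900 bp and stood at 11.8 and 12.6 normalized FPK in low-MYC and at 25.9 and 27.5 in high-MYC libraries. Mrpl34 was at 7.26, 8.00, 16.5 and 17.5 in the same order, Mrpl43 at 7.56, 7.76, 17.1 and 15.9, and Mrpl41 at 6.96, 6.86, 16.0 and 15.5. Mrpl28 followed with a mean of 9.27 over the 4 libraries. The 5 lowest were Mrps28, Mrpl48, Mrpl1, Mrps27 and Mrps35, with spans of 31228 to 121773 bp and means of 0.0478 to 0.275. Mrps28, the counterpart of bacterial S1, was at 0.0274, 0.0307, 0.0623 and 0.0707. Its mean fell under the minimum of 0.1 that a gene needed to be tested, although each library held at least 766 estimated reads of it. Its libraries did not overlap between the groups, and its ratio of means was 2.29, within the range of the tested members.

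On the exon scale the order changed. Mrpl33, a small protein with a bacterial counterpart, was the highest of all, at 40.4 and 46.0 normalized fragments per kilobase of exon in low-MYC and at 100 and 108 in high-MYC libraries. On the deposited scale it ranked 70th of 78, because its gene spans 67450 bp for 478 bp of exon. Mrps21, the counterpart of bacterial S21, was next, at 36.9, 36.3, 82.2 and 85.01, and was the highest of the small subunit. Mrpl20 was at 28.8, 29.2, 61.5 and 66.2, Mrpl42 at 24.8, 25.9, 51.2 and 57.3, and Mrpl52 at 23.3, 26.3, 50.2 and 51.9. The lowest were Mrps35 (1.23, 1.34, 2.76 and 2.94), Mrpl48 (1.39, 1.42, 2.90 and 3.04) and Mrpl1 (1.56, 1.60, 2.95 and 3.30), which were also among the lowest as deposited. The members thus spread over a mean of 2.07 to 73.6, with a median of 12.1 in the large subunit and 10.4 in the small subunit, and the median of all tested genes was 5.92. The rank was much the same with another choice of exon length. The Spearman correlation with levels per principal transcript, which are also divided by an exon length, was 0.99 over the 78 genes. Together the members took 0.219% to 0.228% of the estimated reads of a library.

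**Figure D1:**
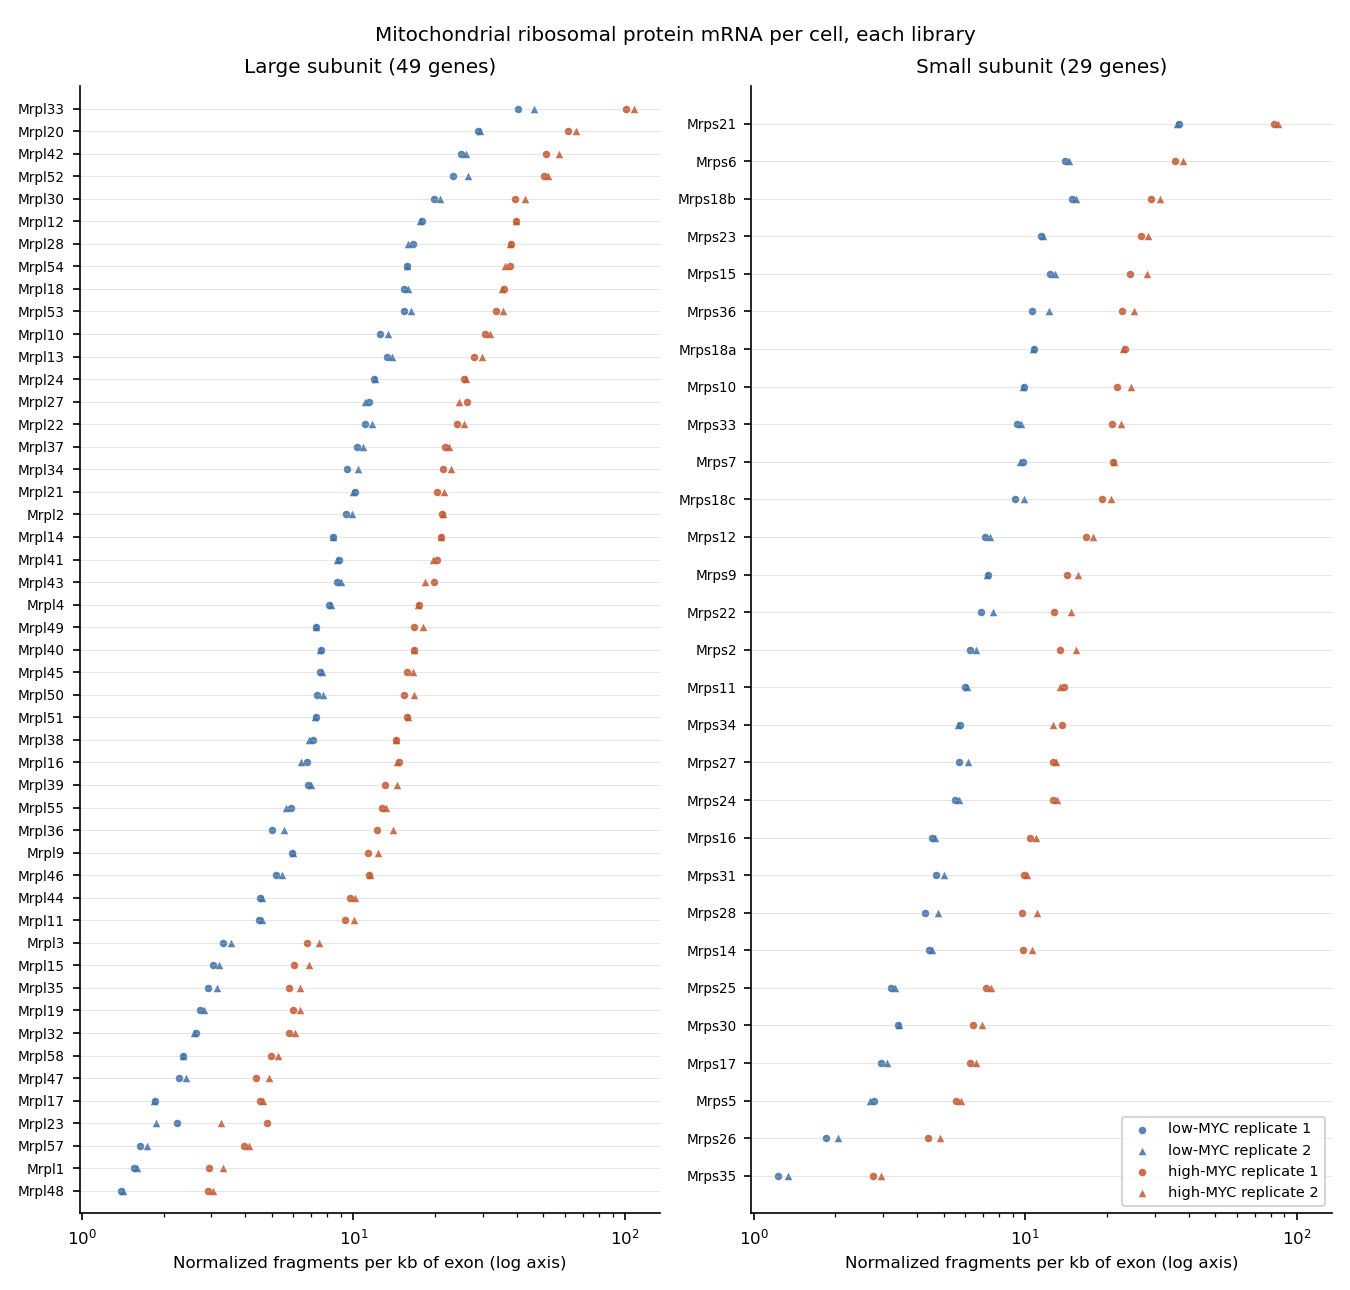
Level of each mitochondrial ribosomal protein gene in each library, as normalized fragments per kilobase of exon on a log axis, with large-subunit genes on the left and small-subunit genes on the right. Blue marks are low-MYC and orange marks high-MYC libraries, with circles for replicate 1 and triangles for replicate 2, and in all 78 genes both orange marks lie to the right of both blue marks.

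**Figure D2:**
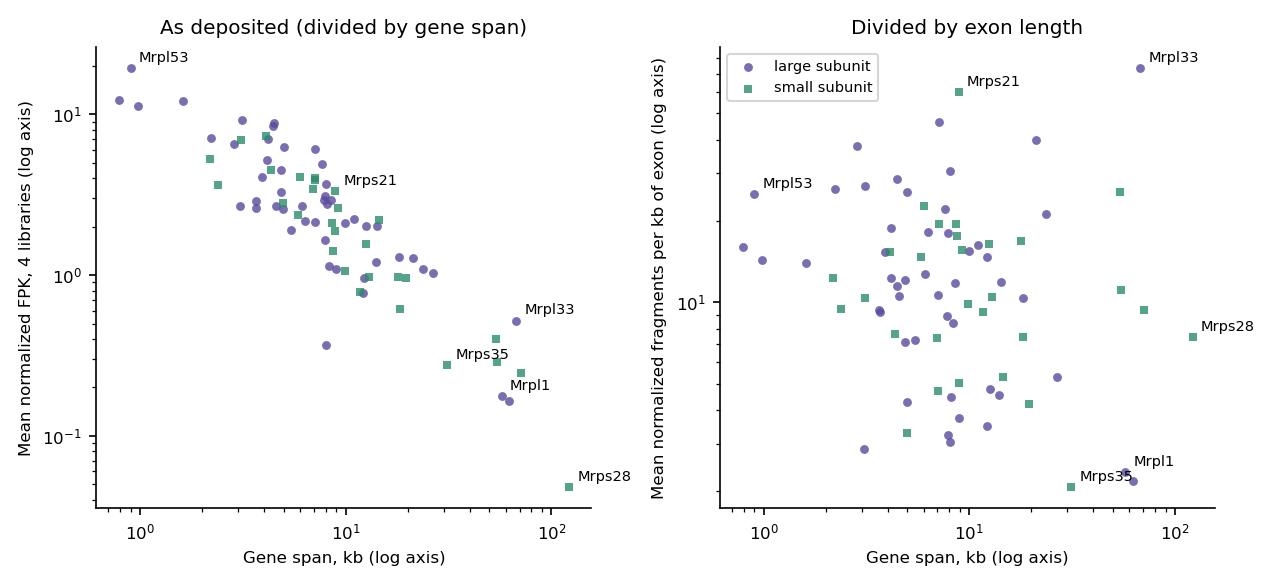
Mean level over the 4 libraries against gene span in kb, both on log axes, as deposited on the left and per kilobase of exon on the right, with 1 mark per gene. The deposited level falls with span (r = -0.89 between logs). On the exon scale the slope against span is largely gone (r = -0.20), and Mrpl33 moves from among the lowest to the highest. Against exon length, which is not drawn, the exon-scale level still falls (r = -0.78 between logs).

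The question of whether the mitochondrial ribosome stood out from the general rise was asked after each library had been rescaled to the same median gene. The median fitted change of all tested genes was 1.03 log2 units before this step and -0.0039 after it. Both carry the pseudocount, so a relative change is not the per-cell change less 1.03. Relative to the median gene, 0 of 77 members passed an adjusted p of 0.01 in limma in either direction, while 1.76% of all tested genes were higher and 0.531% lower by the same rule. Fewer genes passed whichever library was left out, but each such fit leaves 1 library in a group. Whether these shares depend on particular libraries can therefore not be told. At an unadjusted p under 0.05, 3 members were higher and 23 lower (29.9%), against 2055 higher and 1878 lower (15.8%) of all tested genes. More members lay under 0 than above it, 53 of 77 (68.8%, against 51.5% of all tested genes). By name these were 37 of 49 large-subunit genes (75.5%) and 16 of 28 small-subunit genes (57.1%). By place in the structure it was 39 of 51 (76.5%) in the large and 13 of 25 (52.0%) in the small subunit. The subunits were not tested against each other on this share. The median was -0.05 in the large subunit and -0.02 in the small subunit, and the members ranged from -0.23 to 0.15. From the 5th to the 95th percentile the members spread over 0.27 log2 units and all tested genes over 0.55. At an adjusted p under 0.05, 3 of 77 members were lower (Mrps30, Mrpl9 and Mrps18b) and 0 higher, against 5.07% lower and 7.82% higher of all tested genes.

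The lowest relative values belonged to Mrps22, Mrps30 and Mrps18b in the small-subunit names and to Mrpl9, Mrpl47 and Mrpl23 in the large subunit. Mrps22, a mitochondria-specific protein of the small subunit, was at 6.89 and 7.63 normalized fragments per kilobase of exon in low-MYC and at 12.8 and 14.7 in high-MYC libraries. It rose per cell (1.89-fold in means), with a relative change of -0.23 ± 0.056 (SE) and an adjusted p of 0.072. Mrps30, which sits in the large subunit, was at 3.41, 3.42, 6.404 and 6.92, with a relative change of -0.20 ± 0.029 and the lowest adjusted p of any member, 0.028. Mrpl9, the counterpart of bacterial L9, was at 5.92, 6.00, 11.3 and 12.3, with -0.19 ± 0.029 and an adjusted p of 0.032. Mrps18b, one of a trio of proteins related to bacterial S18, was at 14.8, 15.4, 29.1 and 31.4, with -0.17 ± 0.027 and an adjusted p of 0.035. Mrpl47 was at 2.27, 2.43, 4.37 and 4.87, with -0.18 ± 0.039 and an adjusted p of 0.059. In each of these the high-MYC libraries lay above the low-MYC libraries per cell, and the relative value was below 0.

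Mrpl23, a large-subunit protein with a bacterial counterpart, was at 2.23 and 1.88 in low-MYC and at 4.82 and 3.26 in high-MYC libraries, the widest replicate spread of the members, and its relative change was -0.17 ± 0.19. It had the fewest estimated reads (286 to 496). A pseudogene of the same family, Mrpl23-ps1, is listed apart at 8.81, 8.65, 20.0 and 21.2 on the same exon scale. The E/M quantification can divide reads between similar copies, and whether it did so here was not tested, so the level of Mrpl23 is given as uncertain. The Mrpl23 log2 fold change relative to the median gene was -0.40 without high-MYC replicate 1 and 0.075 without high-MYC replicate 2.

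At the upper end stood Mrps6, Mrpl36, Mrpl17 and Mrpl14. Mrps6, the counterpart of bacterial S6, was at 14.0 and 14.4 in low-MYC and at 35.6 and 38.1 in high-MYC libraries, a ratio of means of 2.59 and a relative change of 0.15 ± 0.031 (adjusted p = 0.053). Mrpl36 was at 5.02, 5.55, 12.2 and 14.0, Mrpl17 at 1.86, 1.84, 4.54 and 4.63, and Mrpl14 at 8.42, 8.40, 21.0 and 20.98, each with a relative change of 0.12 and an adjusted p of 0.106 to 0.228. In the small subunit Mrps23 and Mrps12 followed with 0.07 each. Mrps12, which lies at the decoding centre, was at 7.13, 7.39, 16.8 and 17.7. None of these passed the test, and a rise beyond the median gene was not detectable for any member with 2 libraries a group.

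**Figure D3:**
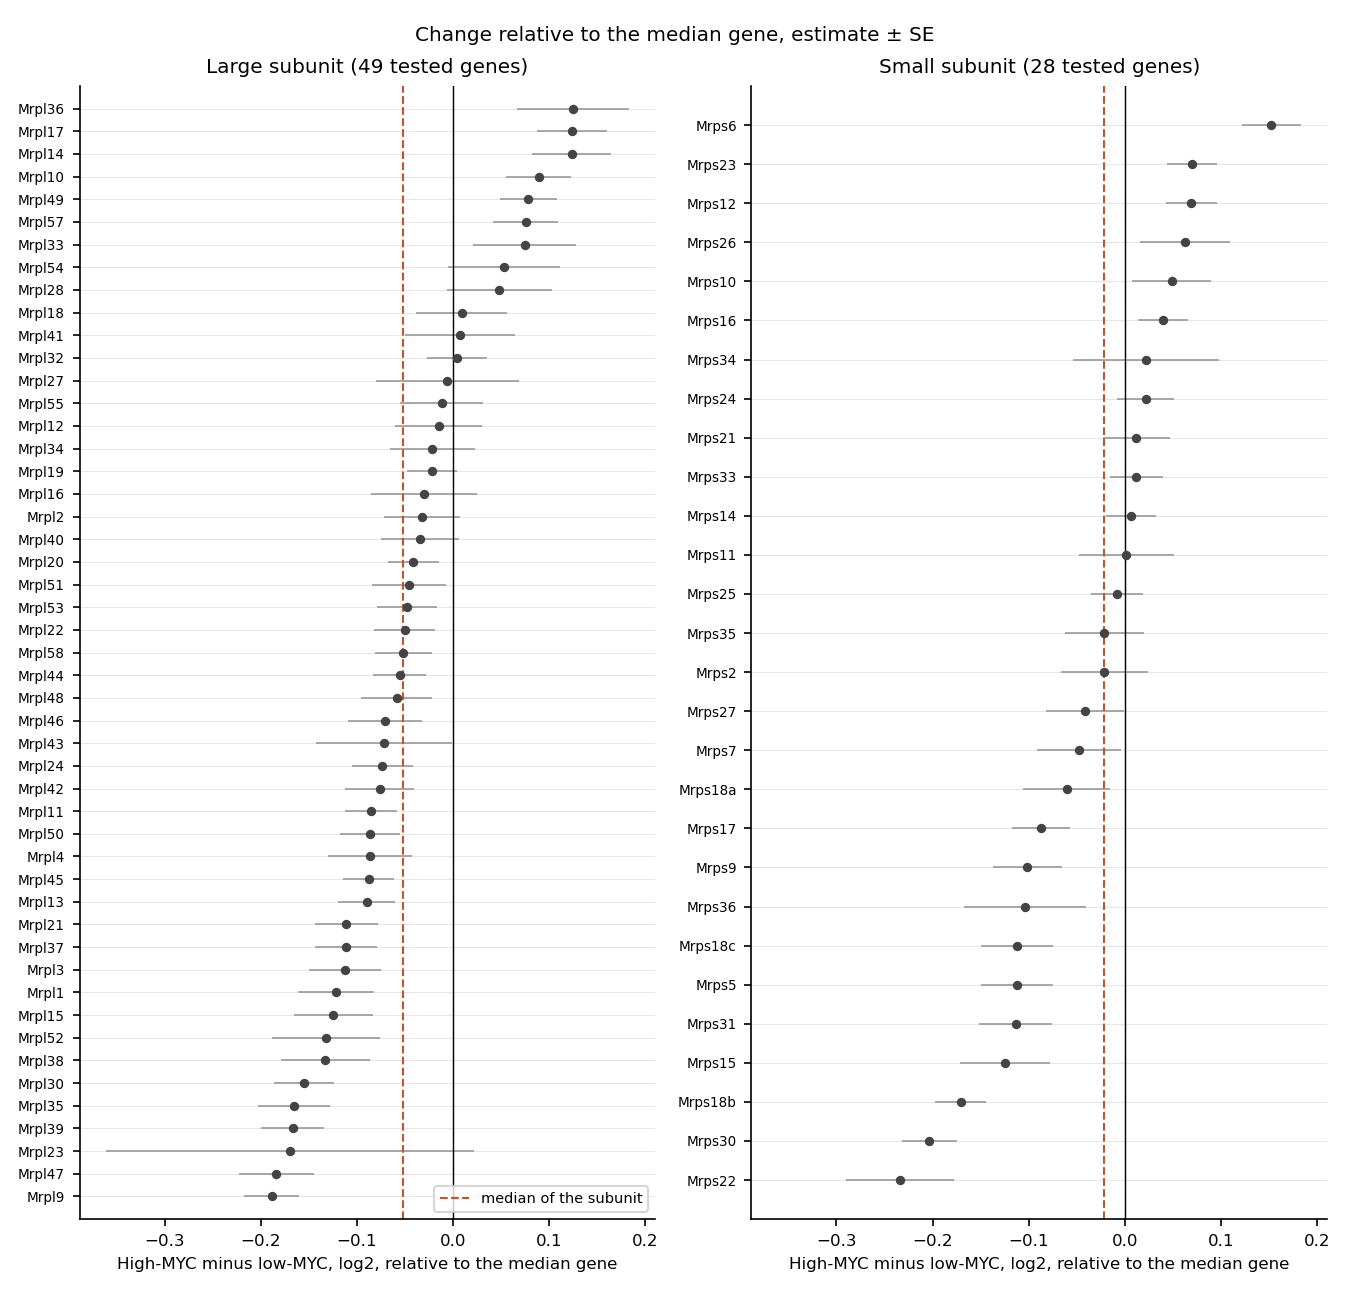
High-MYC minus low-MYC change of each tested member on the log2 scale after every library was set to the same median gene, as the limma estimate with its standard error, by subunit. The dashed lines mark the medians of -0.05 and -0.02, and the values run from -0.23 in Mrps22 to 0.15 in Mrps6, with the widest error in Mrpl23.

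The relative calls changed when the values were set up differently. The length division was undone in a setting chosen after the values were seen. Values times span were divided by the step of low-MYC replicate 1 in all libraries. They thus kept the spike-in scaling and equal estimated reads in that library alone. To these 1 was added before the log, and genes with a mean of 10 or more were kept. All 78 genes could be tested in this way, Mrps28 included. Then 11 members were lower relative to the median gene and 0 higher, against 9.34% lower and 8.55% higher of 17594 genes. The 11 were Mrpl1, Mrpl9, Mrpl15, Mrpl30, Mrpl35, Mrpl39, Mrpl47, Mrps9, Mrps18b, Mrps22 and Mrps30, or 14.1% of the members. The change was -0.30 in Mrps22, and 58 of 78 members lay under the value of the median gene. All members still rose per cell in that fit, which differs from the first in length, pseudocount, filter and genes tested together, and which of these moved the calls was not tested.

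Of the proteins with a known place or task in the ribosome, none was called relative to the median gene in the main fit. In the stalk, which recruits translation factors, Mrpl12 was at 17.9 and 17.5 in low-MYC and at 39.7 and 39.6 in high-MYC libraries, and it is also known to bind the mitochondrial RNA polymerase. At the base of the stalk, Mrpl10 had a ratio of means of 2.41 and Mrpl11 of 2.13, with relative changes of 0.09 and -0.09 that did not pass the test. Mrpl3, near the site of peptide bond formation, had a ratio of 2.08, and Mrpl45, which faces the inner membrane near the exit tunnel, had 2.12. Mrpl44, which has a fold of the RNase III family, had 2.17, and Mrpl58, a peptidyl-tRNA hydrolase that frees stalled ribosomes, had 2.18. Among proteins that bind the small-subunit rRNA, Mrps7 had 2.19 and Mrps16 had 2.33. Of the others with a role listed, Mrps2 had 2.23, Mrps34 had 2.30 and Mrpl37 had 2.09. In the S18 trio the ratio was 2.16 for Mrps18a, 2.01 for Mrps18b and 2.09 for Mrps18c, and differences within the trio were not tested. Mrps36, listed with the small subunit by name alone, had 2.09 and levels of 10.6, 12.2, 22.7 and 25.1.

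The balance of the subunits did not differ detectably between low-MYC and high-MYC cells. The summed deposited level of the tested small-subunit genes was 35.6% and 35.7% of that of the large-subunit genes in the low-MYC libraries, and 35.2% and 36.4% in the high-MYC libraries. The groups overlap, since 1 high-MYC library lies under and the other above both low-MYC libraries. The log2 ratio differed by 0.0058 between the group means (exact permutation test, two-sided, p = 1.00, with 0.333 the smallest p that 2 against 2 libraries allow). Per kilobase of exon the share was 49.8% and 49.4% in low-MYC and 49.3% and 50.4% in high-MYC libraries, a difference of 0.0076 log2 units. With Mrps18a and Mrps30 counted as large-subunit genes and Mrps36 left out, the difference was 0.016. Grouped by origin, relative medians were -0.04 for the 30 large-subunit genes with bacterial counterparts and -0.06 for the 19 mitochondria-specific ones. In the small subunit they were -0.02 for the 17 tested genes with bacterial counterparts and -0.01 for the 10 mitochondria-specific ones.

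Other genes of mitochondrial translation also rose per cell. Of a list of 54 genes for further ribosomal subunits, translation factors, assembly factors and mitochondrial mRNA handling, 53 were in the table and 51 could be tested. All 51 rose per cell (97.1% of all tested genes did), 24 of them at least 2-fold (47.1%, against 55.1%). Relative to the median gene 0 were called in either direction, with 1 higher (1.96%, against 17.3% of all tested genes) and 12 lower (23.5%, against 15.8%) at an unadjusted p under 0.05. The relative median of the list was -0.05. The highest by deposited level were Aurkaip1 and Chchd1, which are both small-subunit proteins without an Mrps name, and Tufm, the elongation factor that delivers tRNAs. Aurkaip1 was at 10.8, 11.0, 25.6 and 25.9 normalized FPK and Chchd1 at 9.29, 9.61, 19.0 and 19.6. Tufm was at 11.2, 11.2, 23.7 and 24.7. An adjusted p under 0.05 in limma was reached by Fastkd2, an RNA-binding protein needed for the large-subunit rRNA (-0.17, adjusted p = 0.043), and Noa1, a GTPase of ribosome assembly (-0.15, adjusted p = 0.048), both lower, or 2 of 51 against 5.07% of all tested genes. With the length division undone, 9 of 53 were lower (17.0%, against 9.34%) and 0 higher. Tfb1m, the methyltransferase of the small-subunit rRNA, and Mettl15 were under the minimum and were not tested, with ratios of means of 2.56 and 2.20.

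Related lists gave a frame for these values. The relative median was -0.03 for 81 cytosolic ribosomal protein genes, -0.02 for 78 tested nuclear genes of the respiratory chain, and -0.10 for the 13 protein-coding genes of the mitochondrial genome, which the mitochondrial ribosome translates. The ratio of means had medians of 2.21, 2.24 and 2.12 in these lists, beside 2.18 and 2.23 for the large and small mitochondrial subunits. Values under 0 were found in 69 of 81 cytosolic ribosomal (85.2%), 44 of 78 respiratory chain (56.4%) and 12 of 13 mitochondrial genome genes (92.3%). By the share of genes under 0 alone, the lean of the members (68.8%) is thus not particular to them. At an unadjusted p under 0.05 in limma, however, 23 of 77 members were lower and 3 higher. In these lists 6 of 81, 3 of 78 and 1 of 13 genes were lower and 3, 3 and 0 higher, in the same order. In the mitochondrial translation list above, 12 of 51 were lower and 1 higher. By this measure lower genes were a larger share of the members than of the 3 related lists. In none of the 3 lists was a gene called relative to the median gene in the main fit. With the length division undone, 2 of 81, 3 of 80 and 3 of 13 were called lower and 1, 1 and 0 higher, in the same order. No difference between the lists was tested.

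**Figure D4:**
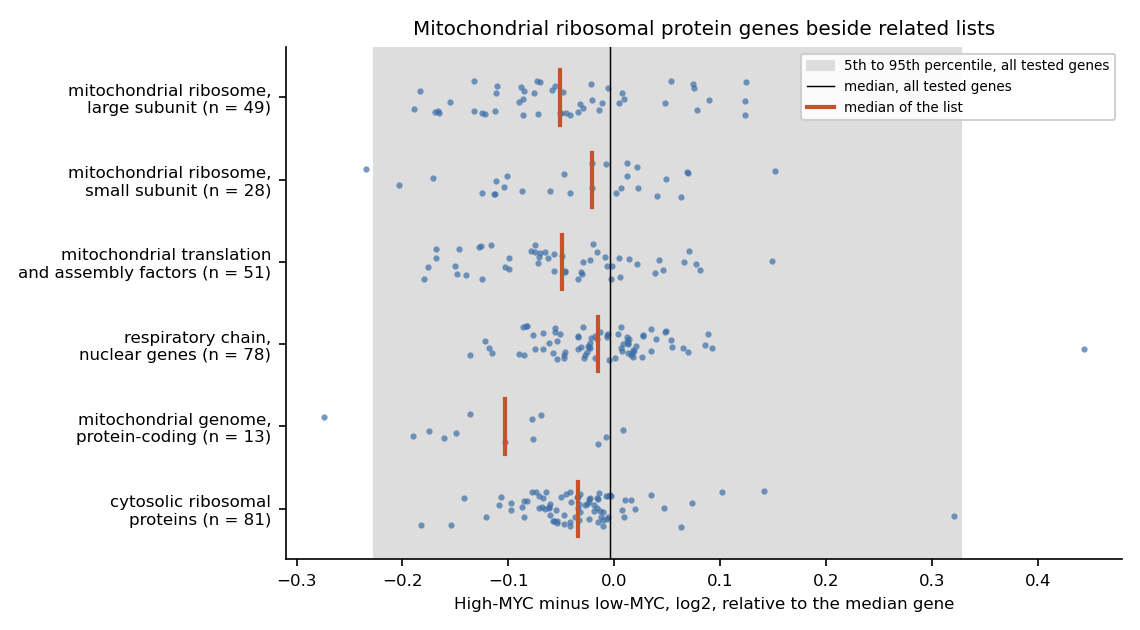
Change relative to the median gene on the log2 scale for the genes of each list, with 1 point per tested gene and an orange bar at the median of the list. The grey band spans the 5th to the 95th percentile of all tested genes (-0.23 to 0.33), and 76 of the 77 members lie inside it.

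Fewer members had a head-to-head neighbour than had none. A protein-coding neighbour that starts on the opposite strand within 1000 bp of the gene's own start, a head-to-head arrangement, was annotated for 33 of 78 members (42.3%), 24 of 49 in the large and 9 of 29 in the small subunit. Among the other 10184 tested protein-coding genes the share was 17.2%. In 18 of the 33 the starts lie apart, and in 15 the first parts of both genes overlap. Some partners also work in mitochondria. They include Twnk (with Mrpl43), the replicative helicase of the mitochondrial genome, Sars2 (with Mrps12), the mitochondrial seryl-tRNA synthetase, and Ndufs6 (with Mrpl36) and Ndufb5 (with Mrpl47), subunits of complex I. The share of such partners was counted neither for the members nor for other genes. Mrpl46 and Mrps11 are partners of each other on chromosome 7, and their first parts overlap. Mrpl46 was at 5.19, 5.46, 11.4 and 11.5 normalized fragments per kilobase of exon and Mrps11 at 5.98, 6.09, 13.9 and 13.5, with relative changes of -0.07 and 0.00. The kit marks strand, but whether the quantification used it is not given in the sources used here, so reads of overlapping partners may have been shared. Of 27 tested partners that are not members themselves, all 27 rose per cell and 0 were called relative to the median gene in the main fit. Their ratios of means were 1.99 to 2.75, with a median of 2.22. Twnk had a relative change of -0.15 and Ncapd2, the partner of Mrpl51 and a condensin subunit, of 0.27.

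In 8 pairs the starts lie 45 to 100 bp apart, and 2 of these 8 intervals hold a motif that was searched. Both of these are shown whole, together with the 2 whose partners have the highest level on the exon scale, Fau and Psma2. The sequence is that of GRCm38.p6 on the strand of the Mrp gene, 5′ to 3′, and the gene itself begins at the next base. Capitals mark letters of the motifs described below.
Mrpl49 and Fau, chr19:6057786-6057843, minus strand: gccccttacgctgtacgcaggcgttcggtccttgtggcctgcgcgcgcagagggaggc
Mrpl32 and Psma2, chr13:14613166-14613239, minus strand: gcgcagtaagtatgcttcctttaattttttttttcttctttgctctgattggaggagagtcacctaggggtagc
Mrps18b and Ppp1r10, chr17:35916390-35916433, minus strand: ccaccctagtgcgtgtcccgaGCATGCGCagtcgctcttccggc
Mrps27 and Ptcd2, chr13:99344706-99344785, plus strand: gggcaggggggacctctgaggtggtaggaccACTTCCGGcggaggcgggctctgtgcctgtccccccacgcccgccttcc

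Fau encodes a ribosomal protein of the cytosolic small subunit fused to a ubiquitin-like part, and Psma2 a proteasome subunit. Fau had a ratio of means of 2.29 beside 2.39 in Mrpl49, and Psma2 had 2.13 beside 2.27 in Mrpl32. Ppp1r10 had 2.08 beside 2.01 in Mrps18b, and Ptcd2, a mitochondrial RNA-processing protein, had 2.12 beside 2.17 in Mrps27. Both genes of each pair rose per cell, and none was called relative to the median gene in the main fit. With the length division undone, Mrps18b was called lower.

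Promoter windows of RefSeq (250 bases before to 50 after a start, GRCm38.p6) that lie within 1000 bp of the table's own start were found for 65 of the 78 genes. The letters CACGTG, the E-box that MYC with its partner MAX is known to bind, which reads the same on both strands, stood in 4 of 65 windows (6.15%). They stood in 10.9% of the windows of 7570 tested protein-coding genes and in 7.15% of all 32851 windows. The E-boxes of the 4 genes are shown with 12 bases on each side, on the gene's strand, with the motif in capitals.
Mrpl2, chr17:46646078-46646107, plus strand: actgccgcccgtCACGTGacccgagcaacc
Mrpl20, chr4:155802833-155802862, plus strand: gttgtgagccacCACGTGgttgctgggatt
Mrpl37, chr4:107067011-107067040, minus strand: agcaagtttcttCACGTGtggcacttcaga
Mrps18c, chr5:100798584-100798613, plus strand: gcagccccgggtCACGTGacttccggcccg

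The ratios of means of these genes were 2.21 in Mrpl2, 2.20 in Mrpl20, 2.09 in Mrpl37 and 2.09 in Mrps18c, beside the median of 2.18 in the large and 2.23 in the small subunit. Their relative changes were -0.03, -0.04, -0.11 and -0.11, and none was called. Other letters searched on both strands were commoner. CCGGAAGT, a core of sites of the ETS family, stood in 10 windows (15.4%, against 10.0% of those of tested protein-coding genes). GCGCATGC, part of the site of NRF1, a regulator of nuclear genes for mitochondria, stood in 7 (10.8%, against 6.18%), and AAGATGGCG, part of the site of YY1, in 5 (7.69%, against 3.78%). In the Mrps18c window the ETS letters, read from the other strand, begin directly after the E-box. A match is a description of the letters in these windows and says nothing of whether a factor is bound.

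The starts of most of these genes carried TACh-seq reads, which mark chromatin open to the nuclease. The labels of 4 TACh-seq samples, WT and KOKD, name a single table of 4881417 reads without a library column, so no comparison of WT with KOKD was made. Reads centred within 500 bp of the start were listed for 70 of 78 members (89.7%), against 84.2% of the other tested protein-coding genes, with a median of 89.5 reads per gene against 107. The most were listed at Mrps12 (401 reads) and Mrpl17 (324 reads). No read was listed at Mrpl3, Mrpl15, Mrpl16, Mrpl35, Mrps2, Mrps18a, Mrps24 and Mrps30, and all 8 of these were expressed in the RNA-seq libraries. Whether the list holds every read or only reads within called peaks is not known. The window was placed on the RNA-seq table's own gene start, and 65 of the 78 members had a RefSeq promoter window within 1000 bp of it. A gene without a listed read may therefore still have open chromatin at its promoter, and this was not tested. The average profile peaked just upstream of the start, at 11.3 reads per gene per 50 bp for the members and 11.5 for the others.

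**Figure D5:**
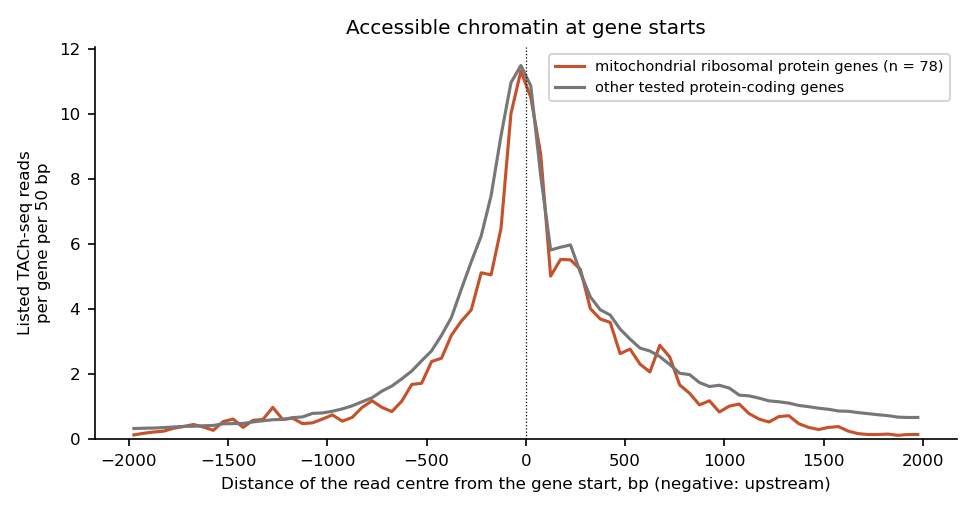
Listed TACh-seq reads per gene in bins of 50 bp by distance of the read centre from the gene start, for the 78 mitochondrial ribosomal protein genes and for the other tested protein-coding genes. Both curves peak at the start (11.3 and 11.5 reads), and the curve of the members lies lower from 100 to 500 bp upstream.

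The FUBP1 peak list used here holds 166 peaks, all on chromosome 15, which also carries Myc, so the other 77 members were not analysed for FUBP1 binding. Mrpl13 (chr15:55534094-55557748 of mm10, minus strand), a large-subunit protein with a bacterial counterpart, is the only member of the 78 on that chromosome. It overlapped 0 peaks, and the nearest peak lay 553853 bp away, at 56111601 to 56114200. Mrpl13 was at 13.3 and 13.9 normalized fragments per kilobase of exon in low-MYC and at 27.7 and 29.8 in high-MYC libraries, a ratio of means of 2.11 and a relative change of -0.09 ± 0.029 (adjusted p = 0.126).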

How the data were processed

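The RNA-seq table (2 technical replicates of each MYC group), a TACh-seq read table and FUBP1 ChIP-seq peaks were analysed. To make the RNA values, the authors removed low-quality 3′ ends (under 20), aligned reads to the mm10 transcriptome with TopHat, quantified them with the Partek E/M algorithm, divided by length and divided by the geometric mean of 10 ERCC transcripts, and the deposited signal values are these normalized FPK. Versions are not given in the sources used here. The methods name transcript length, whereas the values fit gene span. No count table was used here, and reads were estimated from the step of low values; with E/M splits they are not all whole, so no count model was used. The number of per-sample columns left unassigned was 0. Start and end positions in the TACh-seq and FUBP1 files (both Bowtie2, mm10) carry no score. The authors called peaks of both with SICER, for FUBP1 in 200 bp windows against input. How many TACh-seq libraries the reads come from is not known.

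From these values, log2(normalized FPK + 0.1) of genes with a mean of at least 0.1 was compared with limma 3.58.1 (trend) in R 4.3.3, with Benjamini-Hochberg adjustment over all tested genes and an adjusted p threshold of 0.01, per cell and after rescaling each library to the same median gene. Exon lengths and neighbours came from GENCODE M21 and promoters from RefSeq, both on the mm10 build. The procedure was tested on simulated data with independent noise and with changes much larger than the relative changes of the members. That test therefore does not cover changes of the members' size. The members and lists were chosen with earlier results of these data known. Genes named are the 5 highest and lowest by deposited mean, the 3 largest and smallest changes of each subunit, those with a listed role, those not tested or called relative to the median gene, that on chromosome 15 and those whose sequence is shown; the 5 highest on the exon scale, the extremes relative to the median gene, the 3 at an adjusted p under 0.05, Fastkd2, Noa1 and the partners named were chosen after their values were seen. Other steps ran in Python 3.11.15 (scipy 1.17.1, pandas 2.3.3, matplotlib 3.10.9, numpy 2.4.6).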

Additional observations from a re-analysis of the deposited data

How the results depend on the processing

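Settings covered the pseudocount, the filter, the trend, the scaling, the threshold, the subunit assignment and each left-out library, and a setting added after the data were seen undid the division by span. The count of 77 genes that rose per cell was 62 (of 62 tested, with a minimum mean of 1) to 78 under settings that kept the scaling to cells; scaling to the same total normalized FPK left 0, at any fold and at 2-fold. At least 2-fold, 54 became 12 with a pseudocount of 1, and 46 to 62 without single libraries. Lower relative to the median gene, 0 became 3 at an adjusted p under 0.05 and 11 with the division undone, and 0 of the translation and assembly list became 2 and 9. The large-subunit median of 1.07 was 0.80 with a pseudocount of 1, 1.11 with 0.01, 1.10 with a minimum mean of 1, 1.12 with the division undone, 1.05 to 1.09 without single libraries, and -0.052 after scaling to the same median. The small-subunit median of 1.06 was 0.73, 1.14, 1.14, 1.16, 1.03 to 1.10 and -0.021 in the same order. The small-to-large difference was -0.058 with medians of log2 values and -0.017 to 0.029 without single libraries, with its sign turned when high-MYC replicate 2 was left out. The Mrpl23 log2 fold change relative to the median gene ran from -0.40 to 0.075 without single libraries, above 0 without that library, and Mrpl23 lost its call per cell with no filter and with a pseudocount of 1. Over all single-gene values, 830 per-cell and 121 relative ones kept their direction and call, 2 per-cell ones lost it, and 5 relative ones (Mrpl9, Mrpl47, Mrps18b, Mrps22 and Mrps30, division undone) gained it. The causes were not tested, apart from those the settings build in. The labels do not say what a replicate number shares between the groups. Deviations from the group means correlated at 0.081 between same-numbered libraries over all tested genes and at 0.61 over the members, and with 2 pairs the libraries were not treated as paired. With the replicate block 77 genes rose, 54 of them at least 2-fold, and 0 were called relative to the median gene. Under that block 0 of all 11870 genes were called relative to the median gene in either direction, so the members' 0 there shows nothing about them. Mrpl23 had the fewest estimated reads of the members and the widest replicate spread, and a link between these was not tested. The long span of Mrps28 kept it under the minimum.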
